A study of Mus musculus with 40 samples.

Results

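The genes described here are 10 receptors that steer T cell migration, namely the chemokine receptors Ccr4, Ccr6, Ccr7, Ccr8, Ccr9, Cxcr3, Cxcr4, Cxcr5 and Cxcr6 and the sphingosine 1-phosphate receptor S1pr1. They were chosen by gene symbol, and all 10 were found among the 21950 genes of the expression table. RNA-seq had been performed on 24 mouse T cell libraries, in 8 groups of 3 replicates. The groups were resting and activated conventional CD4+ T cells (Tconvs), resting and activated thymus-derived regulatory T cells (tTregs, called nTreg in the labels), and regulatory T cells induced in vitro (iTregs) that were resting, restimulated, or restimulated with an ORAI inhibitor or with cyclosporine A (CsA). The series names CM-4620, which blocks calcium entry through ORAI channels, as the calcium inhibitor, and the libraries labelled ORAIinh are called CM-4620 here. CsA blocks calcineurin, the phosphatase that activates NFAT.

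All cells came from C57BL/6 mice that carried a fluorescent Foxp3 reporter. Tconvs and tTregs were sorted from spleens of mice aged 2 to 4 months. iTregs were made from naive CD4+ Foxp3-negative cells of mice aged 6 weeks, which were stimulated through CD3 and CD28 with TGF-β at 2 ng per ml and IL-2 for 4 days, sorted for Foxp3, rested for 1 day and, where labelled so, restimulated. The methods give a CD62L-high and CD44-low gate for naive T cells and no such gate for tTregs. The gate of the Tconvs, the time of activation and the inhibitor doses of these libraries are not given in the sources used here. The iTregs came from younger mice and had been through days of induction culture, so the parts of age, culture and cell type in a difference from iTregs cannot be told apart.

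Chemokine receptors and S1P receptors are G protein-coupled receptors that turn a gradient of ligand into directed movement. CCR7 brings naive and central memory T cells into lymph nodes, S1PR1 takes them out again into lymph and blood, and CXCR5 admits T cells to B cell follicles. CCR4, CCR8, CXCR3 and CXCR6 are known for entry into skin and inflamed tissue, CCR6 and CCR9 for mucosal sites, and CXCR4 for bone marrow and for the response to CXCL12.

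The promoter letters of 4 members are shown because these genes, all on chromosome 9, differed widely in where they were high: Ccr4 and Ccr8 were highest in iTregs, Ccr9 had few or no reads in iTregs, and Cxcr6 was highest in Tconvs. Of the 10 members 5 lie on chromosome 9, and 22144 bases separate the end of Ccr9 from the start of Cxcr6. Each window runs 5′ to 3′ on the strand of the gene, from 250 bases before to 50 after the RefSeq start, in GRCm38.p6. The windows are chr9:114496495-114496794 on the minus strand for Ccr4, chr9:120091883-120092182 on the plus strand for Ccr8, chr9:123766961-123767260 on the plus strand for Ccr9 and chr9:123806227-123806526 on the plus strand for Cxcr6. Capitals mark matches, on either strand, to the KLF core CACCC, the NFAT core GGAAA, the FOXO motif GTAAACA and the AP-1 motif TGANTCA.
Ccr4: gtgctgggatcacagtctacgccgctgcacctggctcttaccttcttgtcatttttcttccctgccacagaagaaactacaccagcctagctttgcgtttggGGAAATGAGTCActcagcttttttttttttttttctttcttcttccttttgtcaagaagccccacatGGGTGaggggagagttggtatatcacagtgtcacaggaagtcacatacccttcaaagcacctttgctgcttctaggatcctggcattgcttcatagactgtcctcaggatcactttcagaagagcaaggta
Ccr8: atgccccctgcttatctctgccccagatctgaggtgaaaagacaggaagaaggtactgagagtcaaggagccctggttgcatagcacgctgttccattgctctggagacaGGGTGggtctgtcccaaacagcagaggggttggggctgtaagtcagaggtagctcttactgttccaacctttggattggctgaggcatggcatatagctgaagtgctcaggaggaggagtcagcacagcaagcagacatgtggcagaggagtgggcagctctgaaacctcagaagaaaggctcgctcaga
Ccr9: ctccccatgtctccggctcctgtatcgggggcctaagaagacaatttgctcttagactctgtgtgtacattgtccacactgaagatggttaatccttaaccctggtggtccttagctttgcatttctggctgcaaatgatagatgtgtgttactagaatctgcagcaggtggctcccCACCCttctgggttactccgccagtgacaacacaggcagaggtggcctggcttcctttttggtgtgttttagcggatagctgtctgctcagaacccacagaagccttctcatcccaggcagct
Cxcr6: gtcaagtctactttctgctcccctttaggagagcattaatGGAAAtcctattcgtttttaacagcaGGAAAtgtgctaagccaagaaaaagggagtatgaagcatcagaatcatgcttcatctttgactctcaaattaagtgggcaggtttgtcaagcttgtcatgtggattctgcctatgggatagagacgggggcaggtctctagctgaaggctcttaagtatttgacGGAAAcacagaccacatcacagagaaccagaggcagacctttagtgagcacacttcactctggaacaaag

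Promoter windows were at hand for 7 of the 10 members, 8 windows in all since Ccr6 has a pair of starts, and Ccr7, Cxcr5 and S1pr1 had no entry. The KLF core was found in windows of 4 members (Ccr4, Ccr8, Ccr9, Cxcr4) and in 57.5% of the 32851 promoters of the same length. The NFAT core was found in 4 members (Ccr4, Ccr6, Cxcr4, Cxcr6), with 3 matches in Cxcr6, and in 61.3% of all promoters. The AP-1 motif was found in Ccr4 alone, directly beside the NFAT core, and in 7.81% of all promoters. The FOXO motif was found in none of the 8 windows and in 3.65% of all promoters. Against the GENCODE annotation of the same build, 65 of the 300 bases of the Ccr4 window, 69 of the Ccr8 window, 92 of the Ccr9 window and 52 of the Cxcr6 window lay in exons of the gene. The Ccr4 and Ccr9 windows lay wholly inside the annotated span of the gene, which starts further upstream.

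Values are normalized counts, that is, reads per gene divided by a size factor of the library. The reads behind them numbered between 5256800 and 15685234 per library, with a median of 10801942.5, and the lowest group medians were those of tTregs, 7582032 at rest and 7131717 after activation. A floor of 3 reads was worth between 2.12 and 5.45 normalized counts and covers counting error only. No source says that replicates came from separate animals, so the p-values measure the spread between these libraries. In bulk RNA, fewer cells with a transcript and less of it per cell cannot be told apart. Foxp3 matched the labels, at 7218 to 7767 normalized counts in resting tTregs, 1178 to 1338 in resting iTregs and 9.65 to 11.3 in resting Tconvs, and 4 of 5 T cell markers were in the table and present in every group. Of the B cell markers, Ms4a1 and Pax5 were at 0 in all 24 libraries, while Cd79b had a mean of 124 in resting and 100.1 in activated tTregs against 7.97 and 13.4 in Tconvs, and Cd79a was at 18.1 or lower in every group mean. Genes entered a test if 3 or more libraries of the fit held 10 or more normalized counts. A gene was called if limma's adjusted p was under 0.05 and its log2 fold change exceeded 0.5 in size. Log2 fold changes are differences of log2(normalized count + 1) and are given with their standard error (SE).

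Per kilobase of exon, Ccr7 was the highest of the 10 members in all 8 groups, from 3861 normalized counts per kb in resting tTregs to 20126 in activated Tconvs. S1pr1 had rank 2 in the Tconv and tTreg groups, at 3336 per kb in resting Tconvs, and rank 5 in the 4 iTreg groups, at 317 per kb in resting iTregs. Ccr4 and Ccr8 took ranks 2 and 3 in iTregs, at 951 and 889 per kb in resting cells. In resting Tconvs the same pair stood at 22.2 and 2.60 per kb, at ranks 7 and 10. Of the exon bases of Ccr9, 21.5% are shared with Slc6a20a, Gm17200 and AC165425.1, and 3.30% of those of Cxcr5 with Bcl9l. The libraries did not mark strand, so reads from these shared bases cannot be assigned to 1 gene.

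**Figure D1:**
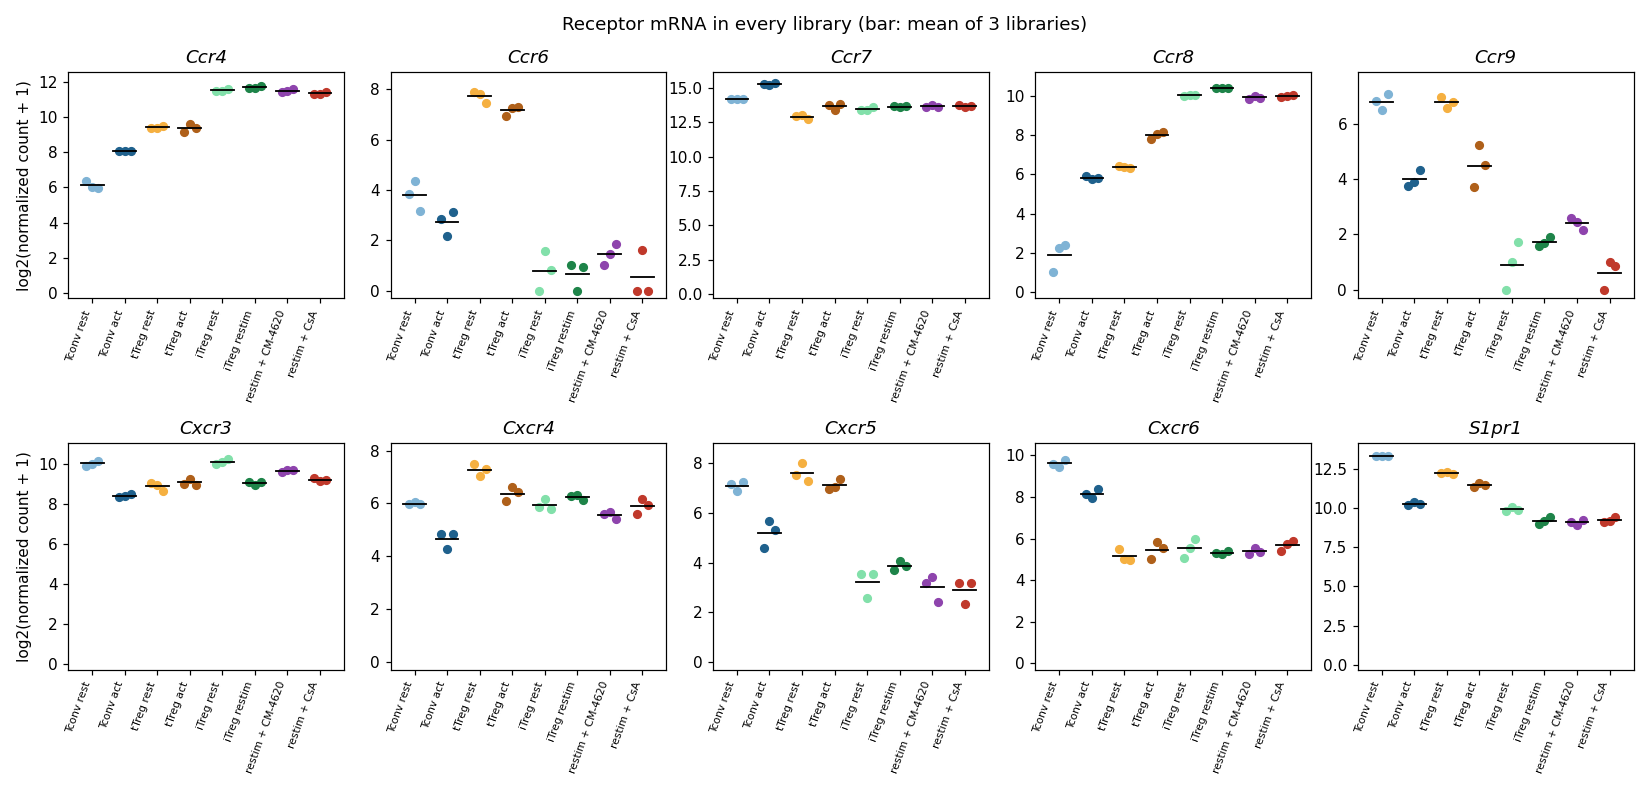
Each panel plots a receptor as log2(normalized count + 1) in every library, with the 8 groups along the horizontal axis, 3 points per group and a bar at their mean. Ccr4 and Ccr8 sit highest in the 4 iTreg groups, S1pr1 and Cxcr6 in resting Tconvs, Ccr7 in activated Tconvs, and Ccr6 in the tTreg groups.

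The group means of a receptor spanned ratios from 3.27 for Cxcr3 and 5.21 for Ccr7 to 436 for Ccr8. For Ccr8, the receptor for CCL1, the order ran from restimulated iTregs through the other iTreg groups, activated tTregs, resting tTregs and activated Tconvs to resting Tconvs. Of the neighbours in that order, resting iTregs, iTregs with CsA and iTregs with CM-4620 overlapped, and all others were separate. For S1pr1 the extremes were resting Tconvs at 10162 ± 134 and iTregs with CM-4620 at 540.4 ± 59.1 normalized counts (SD, n = 3), and only the 3 restimulated iTreg groups overlapped with a neighbour. Ccr7 overlapped along the order from iTregs with CsA to resting iTregs, 5 groups that included activated tTregs. For Cxcr6, all 6 groups other than Tconvs overlapped from neighbour to neighbour.

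Activation changed the receptor profile of Tconvs, with the call of Ccr6 resting on few reads. S1pr1, the egress receptor, fell 8.18-fold, and Ccr4, Ccr7 and Ccr8 rose, while Ccr9, Cxcr3, Cxcr4, Cxcr5 and Cxcr6 fell. All 10 members were called in this comparison, 3 higher and 7 lower, where 50.2% of the 11495 genes tested were called (24.5% higher, 25.7% lower). The median absolute log2 fold change was 1.76 over the members and 0.59 over all genes tested. The members, and the lists used below, were chosen with earlier results of these data known. Their shares and medians beside those of all genes are therefore descriptive and do not test a set. S1pr1 was at 10066, 10105 and 10316 normalized counts in resting Tconvs and at 1171, 1331 and 1226 in activated Tconvs. The groups did not overlap, and this was the fall of smallest p among the members (log2 fold change -3.03, SE 0.08, adjusted p = 4.6e-13). Ccr7, the receptor for CCL19 and CCL21, was at 18351, 18969 and 18865 in resting and at 39850.0, 37680.1 and 41895 in activated Tconvs. It rose 2.13-fold without overlap (log2 fold change 1.09, SE 0.11, adjusted p = 5.6e-07), so the lymph node entry receptor and the exit receptor moved in opposite directions.

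Ccr4, the receptor for CCL17 and CCL22, was at 81.2, 62.8 and 61.4 in resting and at 270.3, 264 and 271 in activated Tconvs. This was a 3.92-fold rise (log2 fold change 1.97, SE 0.12, adjusted p = 3.0e-09). Ccr8 had 1, 4 and 5 reads in the resting libraries, or 1.03, 3.75 and 4.39 normalized counts, and 58.4, 53.5 and 55.2 normalized counts in the activated ones. The groups were separate, and the fitted log2 fold change of 3.92 (SE 0.26, adjusted p = 8.7e-09) depends on the pseudocount because 1 resting library lay under the floor.

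Among the receptors that fell, Cxcr3, the receptor for CXCL9 and CXCL10 on T helper 1 cells, was at 985, 1052 and 1148 in resting and at 332, 336 and 364 in activated Tconvs (log2 fold change -1.62, SE 0.12, adjusted p = 1.8e-08). Cxcr6, the receptor for CXCL16, went from 772, 702 and 883 to 284, 247 and 329.7 (log2 fold change -1.45, SE 0.25, adjusted p = 1.2e-04). Neither pair of groups overlapped. Natural killer cell markers also fell: the summed level of Klrd1, Klrb1c and Ncr1 ranged from 419.5 to 426 in resting Tconvs and from 15.3 to 23.3 in activated Tconvs, with all 3 at 0 in tTregs, and Klrd1, at a mean of 396 in resting Tconvs, made up most of it. Within iTregs this sum ranged from 24.2 to 31.3 at rest and from 86.9 to 124 with CsA, while Cxcr6 overlapped between those groups. Of the 2 CD8 T cell markers, Cd8b1 was at a mean of 229 in resting and 112 in activated Tconvs, and Cd8a was at 2.57 and 2.81. Their part in the result was not tested.

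Ccr9, the receptor for the gut chemokine CCL25, went from 112, 89.1 and 133 to 12.6, 13.8 and 19.1 (log2 fold change -2.80, SE 0.41, adjusted p = 3.0e-05). Cxcr5, the receptor for CXCL13, went from 143, 116 and 151 to 23.3, 50.0 and 38.9 (log2 fold change -1.90, SE 0.30, adjusted p = 5.6e-05). Cxcr4 went from 61.7, 65.7 and 61.4 to 27.8, 18.1 and 27.6 (log2 fold change -1.35, SE 0.20, adjusted p = 3.6e-05). In all 3 receptors every activated library lay under every resting one. Ccr6, the receptor for CCL20, had only 3.45 to 19.7 normalized counts in Tconvs and entered the fit through its level in tTregs. Its log2 fold change of -1.07 (SE 0.39, adjusted p = 0.028) rested on few reads: the adjusted p became 0.127 without activated Tconv replicate 2, 0.0665 without resting Tconv replicate 1 and 0.131 without resting Tconv replicate 2. With a pseudocount of 0.1 the adjusted p of Ccr6 was 0.206, and with only Tconvs fitted Ccr6 was not tested.

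**Figure D2:**
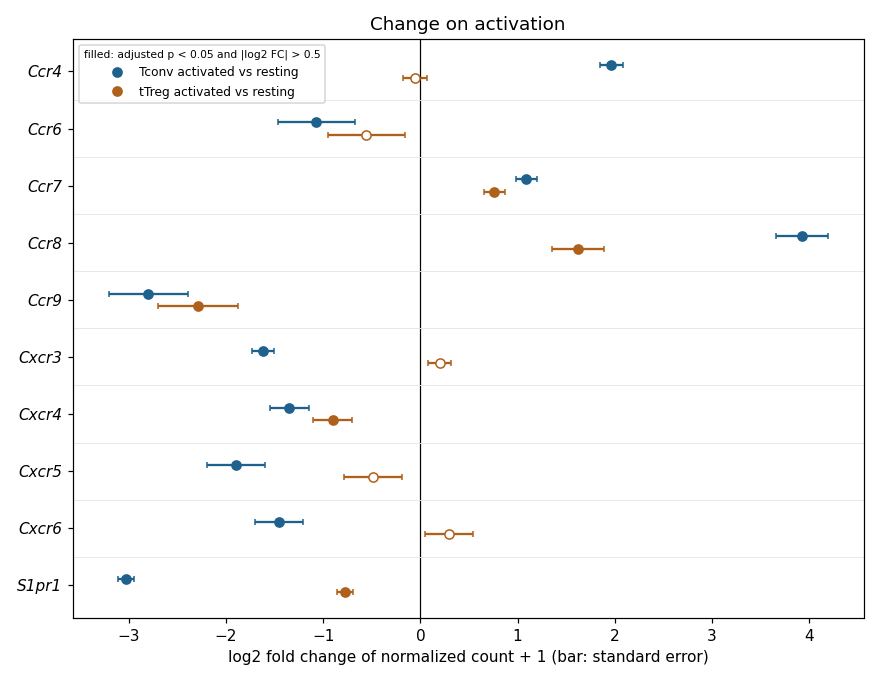
Points give the log2 fold change of normalized count + 1 from resting to activated cells for each receptor, in Tconvs and in tTregs, with bars of 1 standard error, and filled points passed both thresholds. In Tconvs all 10 points are filled, and in tTregs 5 are filled (Ccr7 and Ccr8 higher, Ccr9, Cxcr4 and S1pr1 lower).

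In tTregs 5 of the 10 members were called on activation, 2 higher and 3 lower, where 21.9% of all genes tested were called (11.9% higher, 10.0% lower). S1pr1 was at 4878, 4971 and 4591 in resting and at 2627, 3048 and 2761 in activated tTregs, a fall without overlap but of smaller size (log2 fold change -0.78, SE 0.08, adjusted p = 1.0e-05). Ccr7 rose from 7769, 8249 and 6894 to 13429, 10800.3 and 14719 (log2 fold change 0.76, SE 0.11, adjusted p = 1.3e-04). Ccr8 rose 3.12-fold, from 84.4, 83.0 and 79.7 to 222, 264 and 285 (log2 fold change 1.62, SE 0.26, adjusted p = 3.6e-04). The groups were separate in each of these receptors. Ccr9 fell from 124, 92.1 and 109 to 12.1, 36.0 and 21.8 (log2 fold change -2.29, SE 0.41, adjusted p = 7.2e-04), and Cxcr4 fell from 179, 129.8 and 158 to 67.3, 96.5 and 85.4 (log2 fold change -0.90, SE 0.20, adjusted p = 0.0035).

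The other 5 receptors did not pass the test in tTregs. Ccr4 was at 665, 669.6 and 703 in resting and at 559, 769 and 650.3 in activated tTregs, which overlapped, and the 95% interval of its log2 fold change ran from -0.31 to 0.20. Cxcr3 was at 529.8, 502 and 404 in resting and at 518, 625 and 501 in activated tTregs, with an interval from -0.05 to 0.45. The intervals of Ccr6 (-1.40 to 0.29), Cxcr5 (-1.12 to 0.15) and Cxcr6 (-0.23 to 0.82) were wider, at levels of 30.8 to 256 normalized counts. Ccr6 did not overlap between the groups and was called by DESeq2 (log2 fold change -0.57, adjusted p = 0.047).

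The activation response differed between the cell types in 6 of the 10 members by the interaction term of the same fit, which called 34.7% of all genes tested (17.7% higher, 17.0% lower in tTregs). The difference, tTreg minus Tconv, was 2.26 for S1pr1 (SE 0.11, adjusted p = 2.2e-09), 1.82 for Cxcr3 (SE 0.16, adjusted p = 8.8e-07), 1.75 for Cxcr6 (SE 0.35, adjusted p = 0.0011) and 1.41 for Cxcr5 (SE 0.42, adjusted p = 0.015) on the log2 scale. All 4 were called lower in activated Tconvs, and of them only S1pr1 was called lower in activated tTregs. For Ccr4, which rose in Tconvs and was not called in tTregs, and for Ccr8, which rose in both, it was -2.02 (SE 0.17, adjusted p = 4.1e-07) and -2.30 (SE 0.37, adjusted p = 2.2e-04). For the remaining members the difference missed the threshold, with 95% intervals from -0.66 to -0.002 for Ccr7 (adjusted p = 0.10), -0.68 to 1.71 for Ccr6, -0.73 to 1.75 for Ccr9 and -0.16 to 1.06 for Cxcr4.

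Resting tTregs differed from resting Tconvs in 8 of the 10 members, 4 higher and 4 lower, where 38.6% of all genes tested were called (20.5% higher, 18.2% lower). Ccr4, Ccr6, Ccr8 and Cxcr4 were higher in tTregs, and Ccr7, Cxcr3, Cxcr6 and S1pr1 were lower. Ccr4 was 9.91 times as high (log2 fold change 3.30, SE 0.12, adjusted p = 1.2e-11). Ccr6 was at 236, 223 and 173 in resting tTregs against 13.4, 19.7 and 7.90 in resting Tconvs, 15.4 times as high (log2 fold change 3.92, SE 0.39, adjusted p = 1.0e-06). Cxcr4 was 2.47 times as high (log2 fold change 1.28, SE 0.20, adjusted p = 9.0e-05). None of these groups overlapped. The summed level of the B cell markers was also higher in resting tTregs, at 128 to 136 against 20.2 to 31.9 in resting Tconvs, nearly all of it Cd79b, with Ms4a1 and Pax5 at 0 in both. In the other direction, Cxcr6 was at 44.4, 31.1 and 30.8 in resting tTregs, 22.2 times lower than in Tconvs (log2 fold change -4.45, SE 0.25, adjusted p = 1.3e-09), with the marker levels given above moving the same way. S1pr1 and Ccr7 were 2.11 and 2.45 times lower (log2 fold changes -1.08 and -1.30). Ccr9 overlapped between the groups (95% interval of the log2 fold change -0.90 to 0.85), and for Cxcr5, whose groups were separate, the interval ran from -0.12 to 1.15.

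After activation 9 of the 10 members differed between the same cell types, 7 higher in tTregs and 2 lower, where 48.2% of all genes tested were called (25.6% higher, 22.6% lower). For S1pr1 and Cxcr3 the sign was the opposite of that at rest. S1pr1 was 2.26 times as high in activated tTregs as in activated Tconvs (95% interval of the log2 fold change 1.00 to 1.35, adjusted p = 1.7e-08), and Cxcr3 was 1.59 times as high (log2 fold change 0.66, SE 0.12, adjusted p = 1.8e-04). Ccr6 was at 121, 150.4 and 156 in activated tTregs and at 6.29, 3.45 and 7.78 in activated Tconvs (log2 fold change 4.44, SE 0.39, adjusted p = 2.4e-07). Cxcr5, at 124, 132 and 163 in activated tTregs, was 3.73 times as high (log2 fold change 1.93, SE 0.30, adjusted p = 5.6e-05). The summed B cell markers ranged from 89.0 to 135 in activated tTregs and from 17.96 to 26.7 in activated Tconvs, again with Ms4a1 and Pax5 at 0. Ccr7 and Cxcr6 were 3.07 and 6.46 times lower (log2 fold changes -1.63 and -2.70).

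Resting iTregs combined very high Ccr4 and Ccr8 with low S1pr1 and with few or no reads of Ccr6, Ccr9 and Cxcr5. Against resting Tconvs 8 of 10 members were called, 2 higher and 6 lower, where 63.6% of all genes tested were called (32.8% higher, 30.8% lower). In this comparison Ccr6 entered the fit only through tTregs, and with only these groups fitted it was not tested and 7 members were called. Against resting tTregs 9 were called, 4 higher and 5 lower, where 63.4% of genes were called (32.3% higher, 31.1% lower). Both comparisons share the iTreg libraries. Ccr4 was at 2829.9, 2877 and 3122 in resting iTregs. This was 43.0 times the level of resting Tconvs (log2 fold change 5.41, SE 0.12, adjusted p = 2.3e-14) and 4.33 times that of resting tTregs (log2 fold change 2.11, SE 0.12, adjusted p = 6.6e-10). Ccr8 was at 1020.2, 1056 and 1058 in resting iTregs, 12.7 times the level of resting tTregs (log2 fold change 3.65, SE 0.26, adjusted p = 9.8e-09), and the fitted log2 difference from resting Tconvs, whose reads were few, was 8.13 (SE 0.26, adjusted p = 1.1e-12). No library of another cell type reached the iTreg range in either receptor.

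S1pr1 was at 914, 1065 and 918 in resting iTregs, 10.5 times lower than in resting Tconvs (log2 fold change -3.40, SE 0.08, adjusted p = 5.4e-14) and 4.98 times lower than in resting tTregs (log2 fold change -2.32, SE 0.08, adjusted p = 3.9e-12). Cxcr5 was at 10.5, 5.04 and 10.6, 15.7 times lower than in resting Tconvs and 22.8 times lower than in resting tTregs (log2 fold changes -3.88 and -4.39). Ccr6 had 0, 2 and 1 reads and Ccr9 0, 1 and 3 reads in the resting iTreg libraries, all at or under the floor, so no fold is given for either, and both passed the test against both resting cell types. Cxcr6, at 32.7, 46.4 and 62.2, was 16.7 times lower than in resting Tconvs (log2 fold change -4.07, SE 0.25, adjusted p = 1.1e-09) and overlapped with resting tTregs, with a 95% interval from -0.15 to 0.90 that gave a call only without resting iTreg replicate 1 (log2 fold change 0.61, adjusted p = 0.041). The summed natural killer cell markers ranged from 24.2 to 31.3 in resting iTregs, all of it Klrd1, and so were lower than in resting Tconvs as well, and their part was not tested.

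Cxcr3 in resting iTregs, at 1033, 1109.7 and 1236, overlapped with resting Tconvs (95% interval of the log2 fold change -0.17 to 0.33) and was 2.35 times the level of resting tTregs (log2 fold change 1.24, SE 0.12, adjusted p = 1.8e-07). Cxcr4, at 56.9, 71.6 and 53.9, also overlapped with resting Tconvs (interval -0.49 to 0.37) and was 2.56 times lower than in resting tTregs (log2 fold change -1.34, SE 0.20, adjusted p = 2.6e-05). Ccr7, at 10730.3, 10814 and 12309, lay between the other cell types, 1.66 times lower than in resting Tconvs (log2 fold change -0.73, SE 0.11, adjusted p = 2.0e-05) and 1.48 times higher than in resting tTregs (log2 fold change 0.56, SE 0.11, adjusted p = 2.5e-04). The latter call was lost without resting tTreg replicate 3, at a log2 fold change of 0.49, and under quantile normalization, at 0.17 (adjusted p = 0.22).

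iTregs had been stimulated during induction, so their receptors were also set against activated Tconvs, where 9 of the 10 members were called (4 higher, 5 lower) and 41.6% of all genes tested (22.9% higher, 18.7% lower). S1pr1 was the exception: its log2 fold change of -0.37 (SE 0.08, adjusted p = 0.0015) lay under the threshold of size, and its 95% interval ran from -0.54 to -0.19. Ccr4 and Ccr8 were 11.0 and 18.8 times as high in resting iTregs as in activated Tconvs (log2 fold changes 3.45 and 4.21), and Cxcr3 and Cxcr4 were 3.27 and 2.48 times as high (1.70 and 1.29). Ccr7 was 3.53 times lower (log2 fold change -1.82, SE 0.11, adjusted p = 3.1e-09), Cxcr5 4.28 times and Cxcr6 6.09 times lower, and Ccr6 and Ccr9 were also called lower. Ccr6 had under 10 normalized counts in every library of both groups and entered the fit only through tTregs, and with only these groups fitted 8 of 9 members tested were called.

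**Figure D3:**
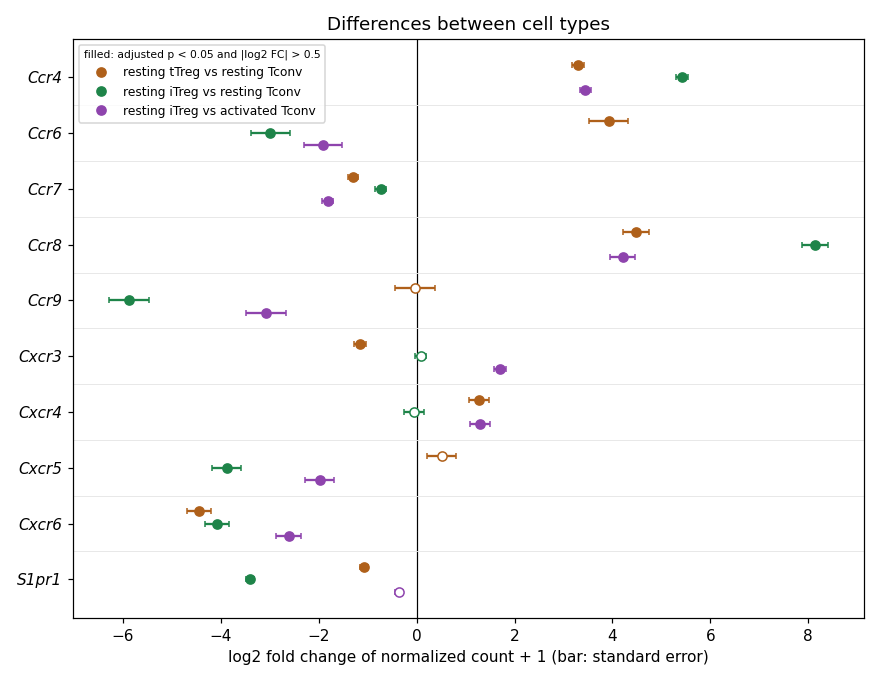
Points give log2 fold changes of normalized count + 1 for each receptor in 3 comparisons, resting tTregs against resting Tconvs, resting iTregs against resting Tconvs and resting iTregs against activated Tconvs, with bars of 1 standard error and filled points past both thresholds. Ccr4 and Ccr8 lie right of 0 in all 3, Cxcr6 lies left of 0 in all 3, and the size of the iTreg points of Ccr6 and Ccr9 depends on the pseudocount since those libraries were at or under the floor.

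Among these receptors, Cxcr3 and S1pr1 were lower in restimulated than in resting iTregs. Of the 8 members tested 2 were called, both lower, where 12.8% of 11105 genes were called (6.70% higher, 6.13% lower), and Ccr6 and Ccr9 were too low to be tested. Cxcr3 was at 1033, 1109.7 and 1236 in resting and at 551, 492 and 553 in restimulated iTregs, 2.12 times lower without overlap (log2 fold change -1.08, SE 0.08, adjusted p = 1.2e-07). S1pr1 went from 914, 1065 and 918 to 503, 584 and 688, 1.63 times lower without overlap (log2 fold change -0.71, SE 0.12, adjusted p = 3.0e-04). Ccr8, at 1354, 1327 and 1317 after restimulation, was above every resting library, but its log2 fold change of 0.35 (SE 0.06, adjusted p = 2.8e-04) was under the threshold of size. Ccr7, at 13066, 12226 and 12790.4, overlapped with resting iTregs, and its log2 fold change was also under that threshold (0.17, SE 0.06, adjusted p = 0.044). Ccr4 was at 3166, 3252 and 3458, above every resting library (log2 fold change 0.16, 95% interval 0.02 to 0.30, adjusted p = 0.076). The intervals were -0.06 to 0.67 for Cxcr4, -0.21 to 1.53 for Cxcr5 and -0.69 to 0.23 for Cxcr6.

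Restimulated iTregs with each inhibitor were set against restimulated iTregs without it. The part of calcium entry or NFAT in these changes was not tested. With CM-4620, 2 of the 8 members tested differed from restimulated iTregs, where 3.30% of genes were called (1.50% higher, 1.79% lower). Cxcr3 was at 781, 842 and 847 with CM-4620, above all 3 restimulated and below all 3 resting libraries (log2 fold change 0.63 against restimulated iTregs, SE 0.08, adjusted p = 1.3e-04). Cxcr4 was at 47.9, 50.2 and 41.2 with CM-4620 and at 76.5, 78.4 and 69.9 without it, 1.61 times lower without overlap (log2 fold change -0.68, SE 0.17, adjusted p = 0.022). This call was lost when any of 4 libraries was left out, with adjusted p of 0.0569 and 0.0868 without CM-4620 replicate 1 or 3 and of 0.0650 and 0.0872 without restimulated replicate 1 or 2. Ccr8 was at 918, 997 and 953 with CM-4620, below all 3 restimulated libraries, with a log2 fold change of -0.48 (SE 0.06, adjusted p = 8.8e-05) that reached the threshold of size, at -0.51, only without CM-4620 replicate 2. S1pr1 was at 546, 479 and 597 and overlapped with restimulated iTregs (95% interval of the log2 fold change -0.37 to 0.12).

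With CsA, limma, edgeR and DESeq2 each called 0 of the 8 members against restimulated iTregs, where limma called 2.92% of genes (1.57% higher, 1.35% lower), and 4 members had an unadjusted p below 0.05. Ccr4, at 2488, 2524 and 2768, and Ccr8, at 974, 1001 and 1049.9, lay below all restimulated libraries, with log2 fold changes of -0.34 (SE 0.07, adjusted p = 0.0043) and -0.40 (SE 0.06, adjusted p = 4.8e-04) that were under the threshold of size. Cxcr3, at 633, 571 and 601, was above all restimulated libraries by less (log2 fold change 0.18, 95% interval 0.01 to 0.34, adjusted p = 0.19). Cxcr5 had few reads, at 8.18, 4.11 and 7.996 with CsA and 12.1, 15.7 and 13.6 without inhibitor, 2.04 times lower without overlap (log2 fold change -0.97, interval -1.84 to -0.11, adjusted p = 0.16). With CM-4620 it was at 8.16, 9.68 and 4.39 (log2 fold change -0.87, interval -1.73 to 0.002, adjusted p = 0.24). S1pr1 was at 554, 586 and 676 and overlapped (interval -0.21 to 0.29).

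Set directly against each other, the inhibitors differed in 0 of 8 members by limma, edgeR and DESeq2, where limma called 0.360% of genes (0.0991% higher, 0.261% lower), and 2 members had an unadjusted p below 0.05. Doses are not given in the sources used here, so the comparison is of these cultures and not of matched doses. Cxcr3 was higher with CM-4620 than with CsA in every library, with a log2 fold change of 0.45 (SE 0.08, adjusted p = 0.0097) that missed the threshold of size and a 95% interval from 0.29 to 0.62. The intervals were -0.41 to 0.08 for S1pr1, -0.20 to 0.04 for Ccr8, -0.15 to 0.11 for Ccr7, 0.004 to 0.28 for Ccr4, -0.70 to 0.02 for Cxcr4, -0.76 to 0.98 for Cxcr5 and -0.75 to 0.17 for Cxcr6. All comparisons with restimulated iTregs share those 3 libraries.

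**Figure D4:**
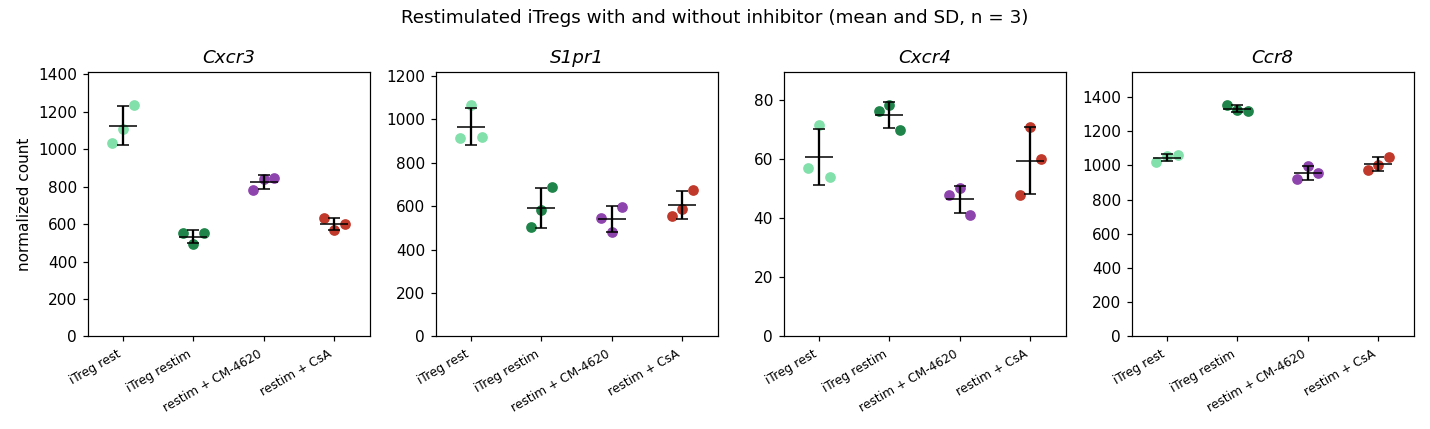
Each panel plots normalized counts of a receptor from 0 in the 3 libraries of each iTreg group (resting, restimulated alone, restimulated plus CM-4620, restimulated plus CsA), with the mean and SD. Cxcr3 with CM-4620 (781 to 847) sits between the restimulated (492 to 553) and resting (1033 to 1236) libraries, S1pr1 stays between 479 and 688 in all restimulated groups, and Ccr8 is highest in restimulated iTregs.

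Restimulated iTregs were also set against the activated cells of both other types. Against activated Tconvs all 10 members were called, 4 higher and 6 lower, where 44.3% of 11725 genes were called (24.4% higher, 20.0% lower). Ccr6 was again under 10 normalized counts in every library of both groups and entered through tTregs, and with only these groups fitted 9 of 9 members tested were called. Ccr4 and Ccr8 were 12.3 and 23.9 times as high (log2 fold changes 3.61 and 4.56), and S1pr1 was 2.10 times lower (log2 fold change -1.08, SE 0.10, adjusted p = 1.1e-08). Against activated tTregs 6 of 10 were called, 2 higher and 4 lower. This share was close to that of all genes, of which 59.3% were called (30.5% higher, 28.8% lower). Ccr4 and Ccr8 were 4.99 and 5.18 times as high (log2 fold changes 2.33 and 2.38), and S1pr1 and Cxcr5 were 4.76 and 10.1 times lower (-2.26 and -3.25), with Ccr6 and Ccr9 also lower. Ccr7, Cxcr3, Cxcr4 and Cxcr6 overlapped between restimulated iTregs and activated tTregs, with 95% intervals of -0.21 to 0.17, -0.25 to 0.17, -0.52 to 0.26 and -0.61 to 0.31.

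Other genes of these pathways were counted from lists given in the processing notes. Among partners of lymph node entry and egress, Klf2, a transcription factor known to drive S1pr1, went the same way as S1pr1 in activation: its mean fell from 818 to 197 in Tconvs (log2 fold change -2.05, adjusted p = 4.4e-08), from 393 to 268 in tTregs (-0.56, adjusted p = 0.016) and from 90.7 to 21.9 on iTreg restimulation (-2.02, adjusted p = 6.4e-05). Cd69, whose protein binds S1PR1 and removes it from the cell surface, rose from 245 to 2253 in activated Tconvs (log2 fold change 3.20, adjusted p = 3.4e-11) and was not called in tTregs (log2 fold change -0.26, 95% interval -0.54 to 0.02). Of the 4 genes of this list, 1 rose and 1 fell on Tconv activation, where 24.5% of all genes were called higher and 25.7% lower. On tTreg activation 2 fell, where 10.0% of all genes were called lower.

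Of 24 other homing receptors 13 were tested in activation. In Tconvs 7 fell and 0 rose, where 25.7% of all genes were called lower (median log2 fold change -1.35, against -0.04 over all genes), with Gpr183, the receptor for oxysterols, from 4429 to 376 (log2 fold change -3.56, adjusted p = 9.1e-12). In tTregs 3 rose (Gpr183, Cx3cr1, Ltb4r1) and 0 fell, where 11.9% of all genes were called higher (median 0.18, against 0.00). By the interaction term, which called 34.7% of all genes, 7 of the 13 differed, all with the higher response in tTregs. On iTreg restimulation, with 12.8% of all genes called, 5 of 14 tested rose and 1 fell, namely S1pr4, another S1P receptor, from 2000.5 to 1236 (log2 fold change -0.69, adjusted p = 1.5e-06). With CsA, where 2.92% of all genes were called, 3 of the 14 were higher and 1 lower than without inhibitor. Of these, Ccr2, the receptor for CCL2, was at 72.2 against 23.1 without inhibitor (log2 fold change 1.62, adjusted p = 0.0030). With CM-4620, where 3.30% of all genes were called, 1 of the 14 was higher and 1 lower.

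Of 22 chemokine ligands 8 were tested in activation. In Tconvs, with 50.2% of all genes called, 4 rose and 1 fell: Ccl5 went from 774 to 151 and Ccl4 from 1.62 to 63.3. In tTregs, with 21.9% of all genes called, 1 rose and 1 fell, the latter being Ccl25, the ligand of CCR9, from 173 to 117 (log2 fold change -0.57, adjusted p = 0.013). On iTreg restimulation, with 12.8% of all genes called, 3 of 5 rose and 0 fell, among them Ccl20, the ligand of CCR6, from 43.0 to 167 (log2 fold change 1.94, adjusted p = 9.9e-08), in cells with at most 2 reads of Ccr6 per library. Of 26 genes of receptor signaling and S1P metabolism 23 were tested in activation, where 4 rose and 9 fell in Tconvs (50.2% of all genes called) and 0 rose and 3 fell in tTregs (21.9% of all genes called). Rgs1, a regulator that damps G protein signals of chemokine receptors, rose from 121 to 2850 in Tconvs (log2 fold change 4.54, adjusted p = 4.4e-14) and fell from 3601 to 2429 in tTregs (log2 fold change -0.56, adjusted p = 4.4e-04). Arrb1, which encodes a β-arrestin, fell from 503 to 117 in Tconvs (log2 fold change -2.09, adjusted p = 1.7e-11). With CM-4620, where 3.30% of all genes were called, 0 of 24 tested genes of this list were higher and 2 lower. Of these, Arrb1 was at 502 in restimulated iTregs, against 777 without inhibitor (log2 fold change -0.63, adjusted p = 3.3e-05).

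Over the 24 libraries, which fall into 8 groups and share their scaling, the profile most like a member was sought among the 11725 genes tested, the member itself left out, by Pearson's r of log2(normalized count + 1). The 3 most alike were Tex15 (0.990), Kif15 (0.986) and Nlgn2 (0.981) for Ccr4, and Ergic1 (0.987), Prdm16 (0.984) and Nrn1 (0.984) for Ccr8. They were Elmo1 (0.985), Lpar6 (0.982) and Tsc22d3 (0.982) for S1pr1, and Smap2 (0.980), Gzmk (0.980) and Als2cl (0.977) for Cxcr6. Ccr6 was most like Erbin (0.978), Ccr9 like 4932438A13Rik (0.973), Cxcr5 like Smg1 (0.977), Cxcr3 like Emp3 (0.958), Ccr7 like Pqbp1 (0.950) and Cxcr4 like Kdsr (0.919). Between members, r was highest for Ccr4 and Ccr8 (0.975).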

How the data were processed

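Polyadenylated RNA had been made into libraries with a modified SMART-seq2 protocol, which does not mark strand. Per the labels and methods, the authors trimmed reads with cutadapt 1.18, aligned them to mm10 with STAR 2.5.3 and counted them on GENCODE genes with RSEM 1.3.0. The values they deposited are, as read from the values themselves, a signal of counts divided by 1 size factor per library, called normalized counts. In each library 100% of values were whole multiples of the smallest value above 0 (tolerance 0.001), from which reads were recovered.

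Normalized counts were used as deposited. Genes with at least 10 in at least 3 libraries of a fit were tested on log2(value + 1) with limma 3.58.1 (R 4.3.3, variance trend), over 15 libraries (Tconvs, tTregs, resting iTregs), 12 libraries (iTregs) or all 24 for restimulated iTregs against activated cells. Adjusted p-values are Benjamini-Hochberg values over all genes tested, and the thresholds (0.05, and 0.5 on the log2 scale) are those the authors set for DESeq2. Intervals are 95% intervals of the same fit. The fit was tested on simulated data.

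The members and lists were chosen with earlier results of these data known. All 10 members are described, and the rule for other genes allowed from each list all called genes where a comparison had up to 5, and otherwise the 2 largest rises and 2 largest falls, of which some are printed and some are not reported here. Cd69 in tTregs was added after its value was seen. The lists were other homing receptors (24 genes), chemokine ligands (22, of which 21 in the table), receptor signaling and S1P metabolism (26), and lymph node entry and egress partners (among them Klf2, Foxo1 and Cd69). Likeness was Pearson's r over 24 libraries.

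Alternatives were pseudocounts of 0.1 and 5, no filter and a filter of 100, rescaled size factors, quantile normalization, other sets of libraries, a replicate block, each library left out, and thresholds of adjusted p alone or of 1 on the log2 scale. edgeR 4.0.16 and DESeq2 1.42.0 on recovered reads were added after the data were seen. Replicates varied between 2.69 and 36.3 times as much as sampling noise, so none was a copy. The values ran from 12.7 to 36.3 for pairs of tTreg libraries, from 3.01 to 9.35 for Tconvs and from 2.69 to 16.4 for iTregs. Each fit shares 1 estimate of spread per gene over its groups, so the SEs do not show this difference. No comparison had a correlation over 0.1 between the deviations of every same-numbered pair, so numbers were not taken as pairs. Positions came from a GENCODE release of GRCm38 other than the authors', and promoter letters from RefSeq (GRCm38.p6). Figures were drawn with matplotlib 3.10.9. ATAC-seq and CUT&Tag data were not used here.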

Additional observations from a re-analysis of the deposited data

Results flagged for a closer look

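The activation response differed between tTregs and Tconvs by the interaction term of limma for 6 receptors. The difference, tTreg minus Tconv, was -2.02 for Ccr4, -2.30 for Ccr8, 1.82 for Cxcr3, 1.41 for Cxcr5, 1.75 for Cxcr6 and 2.26 for S1pr1 on the log2 scale. The size of the Ccr8 value depends on the pseudocount, because resting Tconvs had few reads of Ccr8. Resting Tconvs had the natural killer cell markers beside Cxcr6 that are described above, and their part in its difference was not tested.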

How the results depend on the processing

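Of 132 tests of members in 14 comparisons 84 were called, of which 73 were called under every alternative in which they were tested, 11 were lost under some and 0 turned direction; of the 48 not called, 9 were called under some alternative. With a threshold of 1 on the log2 scale the number of members called was 2 for tTreg activation, 1 for iTreg restimulation and 0 for CM-4620, and with the adjusted p alone it was 4 for iTreg restimulation, 2 for CsA and 1 for CM-4620 against CsA. A filter of 100 normalized counts left 1 for CM-4620, because Cxcr4 was no longer tested, and leaving out 1 library gave 1 to 3. Ccr6 was not tested when only the groups compared were fitted in Tconv activation and in iTregs against Tconvs, where the members called were 9 in Tconv activation, 7 and 8 in resting iTregs against resting and activated Tconvs, and 9 in restimulated iTregs against activated Tconvs. Over all genes those thresholds moved the counts called by over 1.5 times, for example from 5774 to 3047 in Tconv activation and from 2517 to 763 or 3994 in tTreg activation. With a threshold of 1 they fell from 3991 to 2046 for the difference in activation response, from 4441 to 2268 and from 5535 to 2794 for tTregs against Tconvs at rest and activated, from 7314 to 4781, 7293 to 4750 and 4784 to 2566 for resting iTregs against resting Tconvs, resting tTregs and activated Tconvs, and from 5200 to 2873 and 6952 to 4243 for restimulated iTregs against activated Tconvs and tTregs. With either threshold the counts were 471 or 3264 in place of 1425 for iTreg restimulation, 98 or 869 in place of 366 for CM-4620, 81 or 945 in place of 324 for CsA, and 6 or 86 in place of 40 for CM-4620 against CsA. A fit of all 24 libraries gave 232 for CM-4620, 187 for CsA and 10 for CM-4620 against CsA. With only the tTreg groups fitted, tTreg activation gave 1707 genes in place of 2517, and 5 members as in the main fit. A filter of 100, which tests fewer genes, gave 878 for iTreg restimulation and 213 for CsA, and leaving out 1 library gave 26 (without CsA replicate 1) to 30 for CM-4620 against CsA.

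Directions that turned were all of uncalled differences. Under quantile normalization these were Cxcr3 in resting iTregs against resting Tconvs (-0.045) and Ccr7 with CM-4620 (-0.015) and CsA (-0.0071). Quantile normalization moved the median of all genes to -0.12, -0.10 and -0.11 for resting iTregs against resting Tconvs, resting tTregs and activated Tconvs and to -0.11 for restimulated iTregs against activated Tconvs. It changed the genes called higher and lower from 2634 and 2150 to 2095 and 2835 for resting iTregs and from 2856 and 2344 to 2345 and 3023 for restimulated iTregs against activated Tconvs.

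Leaving out 1 library also turned uncalled differences, whose lowest and highest log2 values were -0.17 and 0.059 for Ccr4 in tTreg activation, -0.18 and 0.11 for Ccr9 in resting tTregs against Tconvs, and -0.18 and 0.021 for Cxcr4 in resting iTregs against Tconvs. They were -0.00016 and 0.058 for Ccr7 and -0.0025 and 0.13 for Cxcr6 with CM-4620, -0.071 and 0.15 for S1pr1 with CsA, and -0.058 and 0.0021 for Ccr7 and -0.17 and 0.40 for Cxcr5 between the inhibitors. For restimulated iTregs against activated tTregs they were -0.15 and 0.075 for Ccr7, -0.10 and 0.059 for Cxcr3 and -0.38 and 0.043 for Cxcr6.

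With the replicate number as a block, the members called were 10 for Tconv activation, 5 for tTreg activation, 6 for the difference in response, 8 and 9 for tTregs against Tconvs at rest and activated, 8, 9 and 9 for resting iTregs against resting Tconvs, resting tTregs and activated Tconvs, 2 for iTreg restimulation, 2 for CM-4620, 0 for CsA, 0 for CM-4620 against CsA, and 10 and 6 for restimulated iTregs against activated Tconvs and tTregs, as without it. The correlation of same-numbered replicates' deviations ran from -0.42 to -0.13 in tTreg activation and from 0.05 to 0.24 in iTreg restimulation. Every library correlated best with its own number in 5 of the comparisons. Few reads limited what could be said of Ccr6 and Ccr9 in iTregs, which had 5 reads or fewer in each library, and of Ccr8 in resting Tconvs.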
